A study of Mus musculus with 3 samples.

Results

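The Sox13/Etv5/Blk thymocytes are cells of the mouse thymus that held transcripts of Trdc, the constant region of the T cell receptor (TCR) δ chain, together with transcripts of Sox13, Etv5 or Blk. They were selected on the raw counts of 7 genes in each cell. A cell was taken when it had at least 2 unique molecular identifiers (UMIs, each standing for 1 captured transcript) of Trdc, at least 2 UMIs of Sox13, Etv5 and Blk together, none of Il2ra, and none of Il17re or Il23r. Cells with fewer than 500 or more than 5000 detected genes, or with more than 7% of their UMIs on mitochondrial genes, had been removed first. The gate was applied to the first and the third run, whose sorts took in TCRγδ+ cells. It found 202 of the 5516 cells of the first run that passed these limits and 638 of the 7511 of the third, which makes 840 cells. The whole series of 3 runs held 21879 cells within the limits, and 357 of the 8852 of the second run also met the gate but were not among the cells studied. As a comparison, the other cells of the same run with at least 2 UMIs of Trdc and none of Il2ra were used, 1550 in the first run and 634 in the third.

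All libraries came from C57BL/6 mice of 6 weeks by the sample label and 6 to 8 weeks by the protocol, and 4 thymi were pooled for each. CD4 and CD8 expressing thymocytes had been depleted with magnetic beads before sorting. The first run held total double-negative (DN) thymocytes, which lack CD4 and CD8, together with TCRγδ+ thymocytes. The third run was a mixture made from 3 sorts, 1 of DN1 and DN2, 1 of DN3 and 1 of TCRγδ+ thymocytes. The second run had no sort of TCRγδ+ cells and consisted of DN1 and DN2. The sorts also removed cells with B220, CD11b, CD11c, NK1.1 or TCRβ on their surface, which limits how many B, myeloid, NK and αβ T cells could be present. Each sort was made once, so the 2 runs compared here are different mixtures and not repeats of 1 sort. The kits and versions of the counting software also differed within the study. Total counts were 39947415 UMIs in the first run and 98533329 in the third. The median Sox13/Etv5/Blk thymocyte held 5273.5 UMIs in the first run and 7043 in the third, against 8273 and 7871 in the comparison cells. The first and the third run shared 3 cell barcodes and the first and the second shared 72, and none of these was a barcode of a Sox13/Etv5/Blk thymocyte.

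γδ T cells carry a TCR made of a γ and a δ chain and acquire much of their effector program in the thymus, before they leave for tissues such as skin, lung and gut. Sox13 is a transcription factor of the HMG box family that has been used as an early mark of the γδ lineage, Etv5 is a transcription factor of the ETS family, and Blk is a Src family kinase also found in B cells. All 3 genes are known for their part in γδ T cells that make interleukin 17 (type 17 cells). The other broad outcome, the type 1 cell, makes interferon γ and carries receptors shared with NK cells. In mm10, Trdc lies on chromosome 14 from 54142851 to 54148868 (plus strand) and Blk on the same chromosome from 63372836 to 63417037 (minus strand). Sox13 lies on chromosome 1 from 133382303 to 133424377 and Etv5 on chromosome 16 from 22381309 to 22439719, both on the minus strand. These are the limits of the annotated genes (GENCODE vM21).

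The genes that chose the cells are given first, as a description without a test. Levels are in CPM, for which the UMIs of a gene were summed over the cells of a class and divided by all UMIs of these cells. Levels are followed in places by exact Poisson 95% limits, which cover counting error only. In the first run, Trdc reached 1252 CPM (1196 to 1311) in the Sox13/Etv5/Blk thymocytes and 572 (559 to 585) in the comparison cells. These levels were 1480 and 952 CPM in the third run. The comparison cells of the first run thus held the least Trdc of the 4 classes. Sox13 was at 155 CPM in the first run and 382 CPM in the third, against 5.16 and 49.3 CPM in the comparison cells. Etv5 was at 153 and 246 CPM, against 5.38 and 25.6 CPM. Blk was at 245 and 301 CPM, against 7.0 and 55.5 CPM. All 3 genes were therefore detected at more than 20 CPM in the comparison cells of the third run, which include cells that were left out only because they held Il17re or Il23r.

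Which of the 3 genes admitted a cell differed between the runs. All 3 were detected in 62 of 202 cells of the first run (30.7%, exact 95% interval 24.4 to 37.6) and in 365 of 638 cells of the third (57.2%, 53.3 to 61.1). Sox13 was detected in 61.9% and 90.9% of the cells, Etv5 in 68.3% and 74.5%, and Blk in 80.7% and 79.5%, in the first and the third run, respectively. Cells with Etv5 and Blk but without Sox13 made up 20.8% in the first run and 4.23% in the third. Blk alone admitted 21 cells of the first run and 17 of the third. As a background, Sox13 was found in 1.69% and Etv5 in 1.69% of the 354 cells of the third run with at least 5 UMIs of B cell genes (Cd79a, Cd79b and Ms4a1 among them) and no Trdc (median 4889.5 UMIs), while Blk was found in 45.5% of these cells. The cells of the first run had fewer UMIs, and the part of depth in these shares was not tested.

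**Figure D1:**
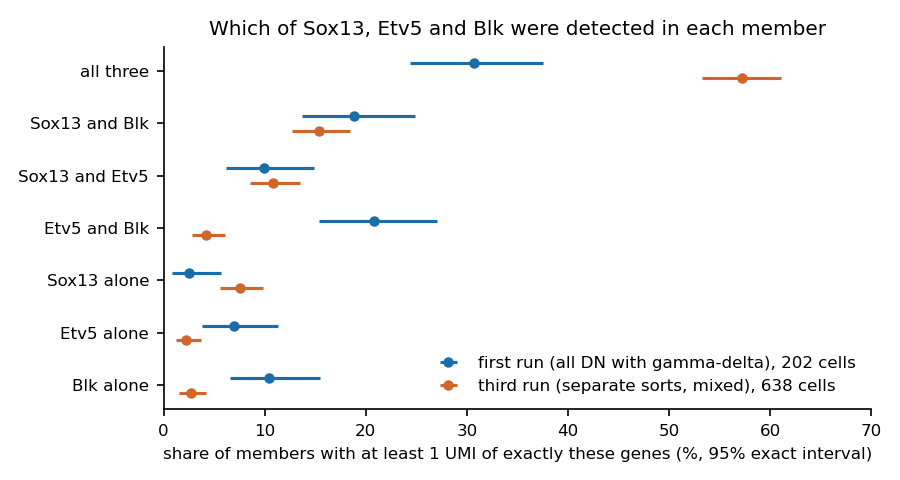
Share of Sox13/Etv5/Blk thymocytes (horizontal axis, percent) in which exactly the genes named on the vertical axis had at least 1 UMI, in the first run (202 cells, blue) and the third run (638 cells, orange), with exact 95% intervals. All 3 genes were found together in 30.7% of the cells of the first run and 57.2% of those of the third, while cells with Etv5 and Blk alone were more common in the first.

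Cells just inside and just outside the gate were compared in genes that the gate did not use, again without a test. The gate admitted 59 cells of the first run and 86 of the third with exactly 2 UMIs of the 3 genes together. It left out 232 and 136 cells that had exactly 1 UMI and, like the admitted cells, no Il17re or Il23r. Gata3, a transcription factor needed in early T cells, was at 254 and 222 CPM in the cells just inside the gate and at 139 and 146 CPM in those just outside, in the first and the third run. Maf, a transcription factor of type 17 γδ cells, was at 40.7 and 222 CPM inside and at 4.44 and 74.8 CPM outside. Both genes thus stepped up at the border of the gate. Myo6, an unconventional myosin, did not, with 11.6 and 10.4 CPM just inside against 9.77 and 11.7 CPM just outside, although it reached 86.1 and 130 CPM over all Sox13/Etv5/Blk thymocytes. Gzma, which encodes a serine protease of cytotoxic granules, was at 1148 and 992 CPM inside and 971 and 379 CPM outside. The other limits of the gate left out unequal numbers. The demand for no Il2ra left out 68 cells of the first run and 276 of the third that met all other limits, and the median of the latter was 16019 UMIs. The demand for no Il17re or Il23r left out 1 cell of the first run and 97 of the third.

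**Figure D2:**
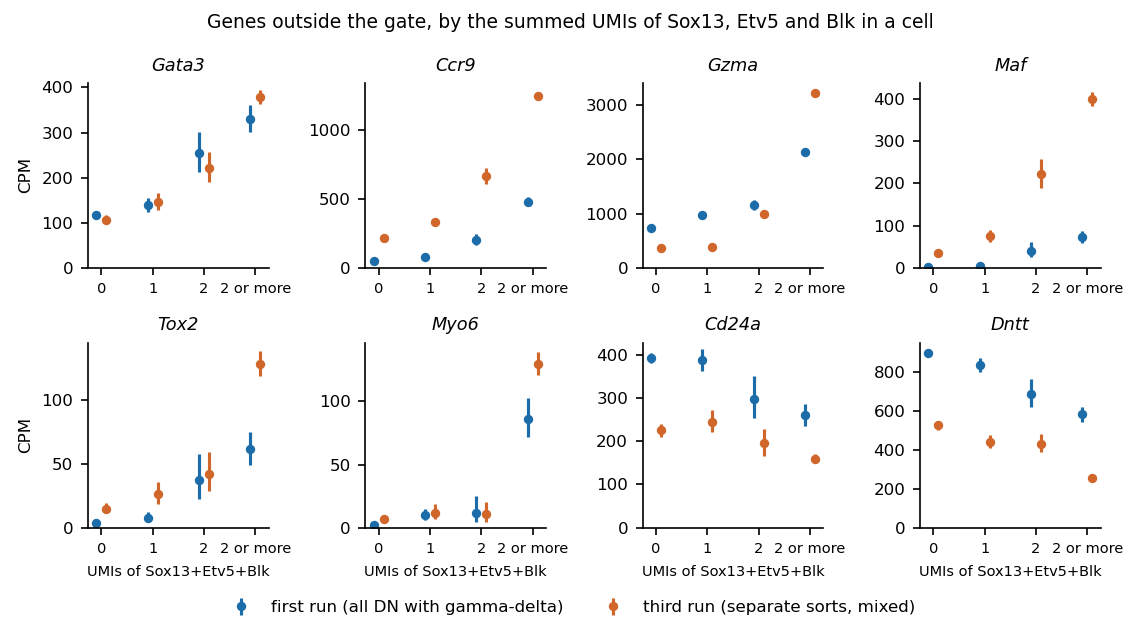
Level of 8 genes that the gate did not use (vertical axes, CPM, 95% Poisson interval) in Trdc+ Il2ra- cells with 0, 1 or 2 summed UMIs of Sox13, Etv5 and Blk (those with 1 or 2 without Il17re and Il23r) and in all Sox13/Etv5/Blk thymocytes (2 or more), in the first run (blue) and the third run (orange). Gata3 and Maf stood higher at 2 UMIs than at 1 in both runs, Myo6 was alike at 1 and 2 UMIs and far higher over all Sox13/Etv5/Blk thymocytes, and Cd24a and Dntt were lowest over all Sox13/Etv5/Blk thymocytes.

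The cells carried the transcripts of a T lineage cell, and few of the defining transcripts of other lineages. Cd3e, a chain of the CD3 complex, was at 524 and 530 CPM in the first and the third run. Since Blk is expressed by B cells, B cell transcripts were checked first. The 10 B cell genes summed to 31.2 CPM in the first run, with Cd79b the most abundant and 8 of the 10 at 0, Cd79a and Ms4a1 among them. They summed to 111 CPM in the third run, and Cd79a was at 30.1 CPM and Ms4a1 at 9.19. The comparison cells were at 22.6 and 125 CPM for the same sum, and none of the 9 B cell genes tested passed the test between the classes. As only 2.0% of all genes tested were higher and 1.47% lower, nothing is read from this lack of calls. Among the myeloid genes, Cst3 gave 133 CPM of 138 in the first run and 124 of 130 in the third, while Csf1r was at 0 and 0.177 CPM. Of the NK and innate lymphoid genes, Ncr1 was at 0 in both runs. Its list reached 381 and 607 CPM, of which Gata3, which T cells share, gave 330 and 379 CPM. The comparison cells were at 155 and 285 CPM for this list. Of its 6 tested genes, Gata3 and Tnfsf11 were higher and none was lower. The 9 genes of plasmacytoid dendritic cells summed to 1103 and 1511 CPM, against 1118 and 999.7 CPM in the comparison cells. Ccr9 was the most abundant of them, at 479 and 1249 CPM, and Ly6d was at 475 and 106 CPM, and both genes are also known from thymocytes. Siglech, a defining mark of these dendritic cells, was at 0 and 0.177 CPM. The 8 erythroid genes summed to 1.36 and 5.48 CPM. Pecam1, the most abundant gene of the stromal list, was at 59.0 and 133 CPM and was higher than in the comparison cells (log2 fold change 0.81 ± 0.15 SE, adjusted p = 0.0299, edgeR).

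Whether the cells were immature was checked with Cd24a, which falls as γδ thymocytes mature, and with Klf2, S1pr1 and Cd44, which mark maturation or exit from the thymus. In the first run, Cd24a was at 260 CPM (234 to 287) in the Sox13/Etv5/Blk thymocytes and at 392 CPM (381 to 402) in the comparison cells. It was at 159 CPM (149 to 170) in the third run, against 221 CPM (210 to 233). Cd24a was thus lower, not higher, in the gated cells of both runs. Klf2, which controls S1pr1, was at 119 CPM against 25.9 in the first run and at 188 against 230 in the third, so that its direction differed between the runs. S1pr1, the receptor that cells need to leave the thymus, was at 4.07 against 2.73 CPM in the first run. In the third run, S1pr1 was at 25.6 against 62.3 CPM. Its level in the first run rests on few UMIs, as 3 counts give 2.03 CPM in the gated cells, so no direction is read there. Cd44 was at 8.81 against 1.70 CPM and at 19.6 against 20.3 CPM. Other genes of the list of immature thymocytes, such as Ccr9 and Gzma, were higher, and its 20 genes summed to 6552 against 4677 CPM in the first run and 9126 against 4578 CPM in the third. As Cd24a and the sum of the list pointed in different directions, the cells are not called immature here.

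Against the other Trdc+ Il2ra- cells of their run, the Sox13/Etv5/Blk thymocytes had more transcripts of transcription factors of the early and type 17 program (Tox2, Rora, Batf, Gata3), of the chemokine receptor gene Ccr9 and of Gzma, and fewer of pre-TCR, CD8 and DNA replication genes. UMIs were summed per run and class, and the 4 sums were tested with edgeR's quasi-likelihood test, with the run as a block. Of 10620 genes tested, 212 (2.0%) were higher and 156 (1.47%) were lower at a Benjamini-Hochberg adjusted p under 0.05. The 7 genes of the gate were not tested. Cells are not replicates, and with 2 runs 1 residual degree of freedom remains, so that most of the information on the error of a gene comes from the other genes. The comparison cells of the first run held 142 CPM of Cd8b1 and 96.6 CPM of Ptcra, against 14.1 and 23.5 CPM in those of the third, so the same label covers different mixtures in the 2 runs. When cells with a UMI of Cd8b1, Ptcra or Rag1 were left out of both classes, 233 genes were higher and 189 were lower.

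**Figure D3:**
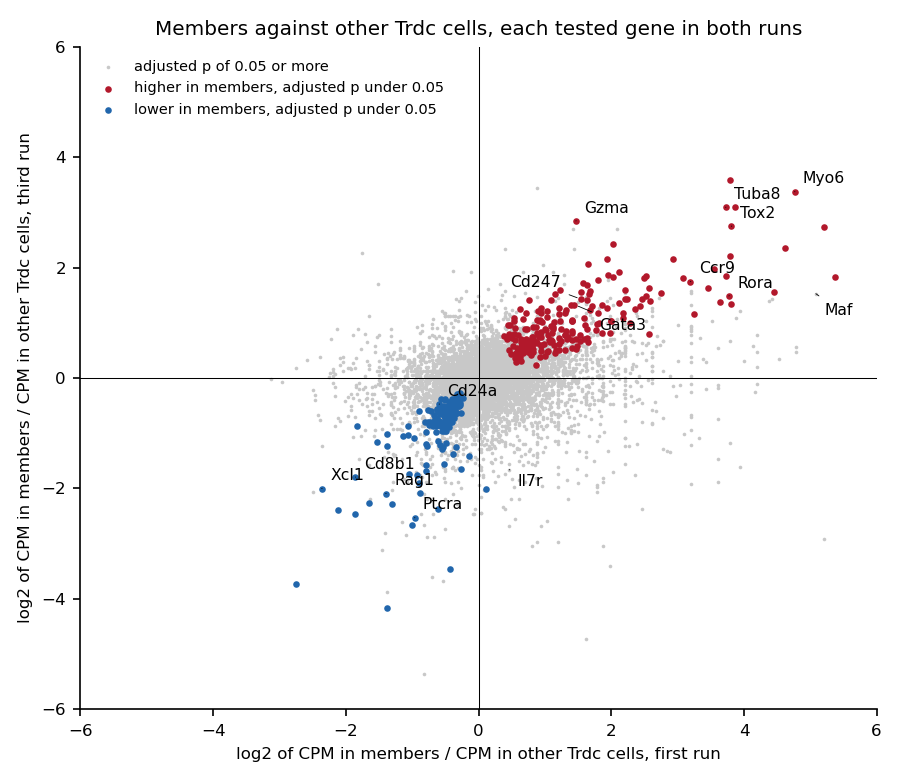
Each tested gene by the log2 ratio of its CPM in Sox13/Etv5/Blk thymocytes to its CPM in the other Trdc+ Il2ra- cells, in the first run (horizontal axis) and in the third (vertical axis), with red and blue points for genes higher or lower at an adjusted p under 0.05 and genes at 0 in a class left out. Myo6, Tuba8 and Tox2 were far above 0 in both runs, while Maf, at 5.08 in the first run and 1.53 in the third, was not called in this fit, and Il7r pointed in opposite directions.

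The greatest increases that met the rule for named genes were those of Myo6, Tuba8, Gem and Tox2. Myo6 was at 86.1 CPM in the gated cells of the first run and 3.17 CPM in the comparison cells, and at 130 against 12.5 CPM in the third run (log2 fold change 3.95 ± 0.28 SE, adjusted p = 0.000763). Tuba8, an α-tubulin, was at 84.7 against 6.41 CPM and at 95.7 against 11.2 CPM (3.38 ± 0.18, adjusted p = 0.00058). Gem, a small GTPase induced by activation, was at 54.2 against 2.21 CPM and at 53.0 against 10.4 CPM (3.27 ± 0.42, adjusted p = 0.0108). The naming rule required the same direction in both runs, so nothing more is read from the agreement of the runs for these genes. Igfbp4, which binds insulin-like growth factors, was next, at a log2 fold change of 2.47. After it came Ccr9 at 2.43, the scaffold gene Mpp4 at 2.16, Gzma at 2.14, Cd163l1 at 2.05 and Cpa3, a carboxypeptidase better known from mast cells and early progenitors, also at 2.05. Exoc4, a part of the exocyst, and Gsn, which encodes the actin severing protein gelsolin, followed at 1.91 and 1.80.

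Among 18 tested factors linked to type 17 differentiation, 6 were higher, 1 was lower and 11 did not pass, with a median log2 fold change of 0.62 against -0.014 over all genes. The thymocytes had 61.0 CPM of Tox2, an HMG box factor related to Tox, in the first run and 128 CPM in the third, while the comparison cells had 4.35 and 19.0 CPM (3.17 ± 0.23, adjusted p = 0.000826). Rora, a nuclear receptor, was at 37.3 and 160 CPM against 2.73 and 57.0 CPM (2.17 ± 0.39, adjusted p = 0.0299). Gata3 was at 330 and 379 CPM against 121 and 150 CPM (1.37 ± 0.09, adjusted p = 0.000763). Batf, Tox and Sox4 also rose, by log2 fold changes of 1.55, 0.93 and 0.86. The single factor that fell was Zbtb16, which encodes PLZF of innate-like lymphocytes, with 7.78 against 40.3 CPM in the third run. It had 0 UMIs in the gated cells of the first run and 0.811 CPM in the comparison cells, so that the call rests on the third run.

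Maf, which type 17 γδ cells need, lay close to the threshold. It was at 72.5 CPM (59.4 to 87.6) against 2.14 CPM (1.43 to 3.07) in the first run and at 401 CPM (385 to 418) against 139 CPM (130 to 149) in the third. The gated cells thus held more Maf in both runs, and the adjusted p was 0.0534 (edgeR, log2 fold change 2.67). It was called higher in 13 of 18 alternative fits, and not with Trdc of at least 4 UMIs, with doublets removed, with DESeq2, with upper-quartile normalization or without the run as a block. Maf was found in 69 of 202 gated cells of the first run and 502 of 638 of the third. Sox4 was at 378 CPM in the gated cells of the first run and 1137 CPM in those of the third.

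Of 23 tested effector genes of type 17 cells, 3 were higher, 1 was lower and 19 neither, with a list median of -0.20. Over all genes, 2.0% were higher and 1.47% were lower. The 3 were Cd163l1 and 5830411N06Rik, of the scavenger receptor family, and Podnl1, a small leucine-rich proteoglycan. The level of Cd163l1 was 82.0 against 8.62 CPM in the first run and 80.6 against 36.2 CPM in the third (2.05 ± 0.39, adjusted p = 0.0345). For 5830411N06Rik, it was 483 against 167 CPM in the third run (1.98 ± 0.23, adjusted p = 0.00814). Il17a had 0 UMIs in the gated cells of the first run, which allows up to 2.03 CPM (3 counts of the summed total). It was at 3.18 CPM in the third run, where its 18 UMIs came from 1 cell. Il17f was at 0 and 1.77 CPM and Ccr6, a chemokine receptor of type 17 cells, at 0 and 7.43 CPM. The gated cells therefore held little of the type 17 products themselves, in cells chosen to lack Il17re and Il23r.

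Genes of the type 1 and cytotoxic program had a median of -1.18 over 20 tested genes, of which 4 were lower, 1 was higher and 15 did not pass. The 24 genes of the list summed to 934 against 515 CPM in the first run and 1272 against 1489 CPM in the third. Ccl5, a chemokine, was at 1.36 against 5.90 CPM in the first run and at 21.2 against 112 CPM in the third (-2.37 ± 0.19, adjusted p = 0.0012). Xcl1, a chemokine of cytotoxic and innate-like cells, was at 2.03 against 10.5 CPM and at 8.66 against 34.7 CPM (-2.05 ± 0.25, adjusted p = 0.0095). The other genes that fell were Fcer1g and Tyrobp, adaptors of NK cell receptors. The first run held few UMIs of these genes in either class. Cd27, a costimulatory receptor that marks γδ cells with interferon γ potential, rose instead, from 200 to 450 CPM in the first run and from 270 to 387 CPM in the third (0.82 ± 0.14, adjusted p = 0.0247).

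Some genes of the γδ TCR and of the signalling machinery next to the receptor rose. Fold changes were above 0 for 11 of 12 and 19 of 25 tested genes of these lists. Over all genes, 2.0% were called higher and 1.47% lower, so nothing is read from the lack of lower calls. For the γδ receptor, 3 of 12 tested genes were higher and none was lower, with a median of 0.75. The constant region genes Tcrg-C1 and Tcrg-C2 were at 584 and 772 CPM in the gated cells of the first run, against 286 and 387 CPM. The values in the third run were 437 and 417 CPM against 314 and 318 CPM. The 2 genes are near copies, and their reads may not be fully told apart. Of 25 genes of proximal signalling, 6 were higher and none was lower, with a median of 0.38. Cd247, the CD3 ζ chain, was at 388 against 133 CPM and at 535 against 199 CPM in the first and the third run (1.47 ± 0.09, adjusted p = 0.00058). Rasgrp1, which links the receptor to Ras, was at 163 against 49.9 CPM and at 593 against 241 CPM (1.47 ± 0.11, adjusted p = 0.00107). The adaptor gene Grap2, the kinase genes Prkcq and Zap70 and the CD3 chain Cd3d rose by 0.99, 0.85, 0.59 and 0.41. Of 26 genes induced by TCR signals, 2 were higher, 1 was lower and 23 did not pass. Their median was 0.39, and 18 had a fold change above 0. The activation mark Cd69 was at 32.5 against 9.51 CPM and at 362 against 197 CPM (1.17 ± 0.18, adjusted p = 0.0209). Dusp6, a phosphatase of the ERK pathway, was at 23.7 against 1.70 CPM and at 24.4 against 9.58 CPM (2.25 ± 0.48, adjusted p = 0.0494). Tnfrsf9, a costimulatory receptor of activated cells, fell (log2 fold change -2.91), with 3.39 against 4.57 CPM in the first run and 3.01 against 33.3 CPM in the third. Id3, which rises with strong γδ TCR signals, was not called, with 341 against 193 CPM in the first run and 179 against 181 CPM in the third.

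Among 20 genes of immature thymocytes, 5 were higher and 2 were lower, with a median of 0.20. The shares over all genes were 2.0% higher and 1.47% lower. Ccr9, the receptor for a chemokine of thymus and gut, was at 479 against 52.4 CPM in the first run and at 1249 against 373 CPM in the third (2.43 ± 0.27, adjusted p = 0.00768). Gzma was at 2137 against 773 CPM and at 3214 against 446 CPM (2.14 ± 0.28, adjusted p = 0.0108), and was thus among the most abundant transcripts named here. Tespa1, which takes part in TCR signalling of thymocytes, rose by 1.22 and Lgals9 by 0.61, beside Sox4. Cd24a (-0.55 ± 0.10, adjusted p = 0.0278) and Rag1, which cuts DNA for TCR rearrangement (-1.78 ± 0.21, adjusted p = 0.00819), were the 2 that fell. Of 22 homing genes, 3 were higher and none was lower, and the chemokine receptor genes Ccr9 and Ccr4 were among the 3. At a share of 1.47% lower over all genes, nothing is read from the lack of lower homing genes. Of 23 genes of maturation and egress, 2 were higher, Gimap3 was lower and 20 did not pass. Crip1 was among those that rose. Crip1 was at 5967 against 2731 CPM and at 4429 against 2326 CPM (1.01 ± 0.06, adjusted p = 0.00058).

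A few genes of earlier or αβ stages fell, while most genes of both lists did not pass the test. The shares over all genes were 2.0% higher and 1.47% lower. In the list of progenitor and Notch genes, 3 of 16 were lower and 1 was higher, with a median of -1.08. Ptcra, which encodes the pre-TCR α chain, was at 49.5 against 96.6 CPM in the first run and at 4.07 against 23.5 CPM in the third (-1.57 ± 0.29, adjusted p = 0.0327). Dntt, the polymerase that adds bases at TCR joints, was at 581 against 887 CPM and at 256 against 463 CPM (-0.75 ± 0.09, adjusted p = 0.00768). Cd8b1 was at 39.3 against 142 CPM and at 4.07 against 14.1 CPM (-1.86 ± 0.16, adjusted p = 0.00165). Cpa3 was the gene that rose, at 142 against 24.1 CPM and at 256 against 82.6 CPM. For the αβ lineage, Cd8a, Cd8b1 and Ptcra were lower among 13 tested genes, 10 did not pass and the median was 0.18, above 0. Of 22 cell cycle genes, 8 were lower and none was higher, and at the shares above nothing is read from the lack of higher calls. Their median was -0.37, and all 22 had a fold change below 0. Pcna, the replication clamp, was at 324 against 445 CPM and at 135 against 199 CPM (-0.52 ± 0.09, adjusted p = 0.0259), and the helicase genes Mcm5 and Mcm6 both fell by 0.61. Mki67, a mark of dividing cells, was not called, with 123.3 against 136.6 CPM and 189.6 against 244.5 CPM. With cells that held Mki67 or Top2a removed from both classes, 100 gated cells of the first run and 385 of the third were left, and 146 genes were higher and 108 lower.

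The strongest decreases under the naming rule included Ly6d, a surface protein of early lymphoid cells, at 475 against 886 CPM in the first run and 106 against 399 CPM in the third (-1.42 ± 0.19, adjusted p = 0.0133). Bst2, which is induced by interferon, and Fabp5, which binds fatty acids, also fell (log2 fold changes -0.87 and -0.83). Cdca7, Mcm4, Fkbp5, Wdr12 and Srm fell as well, with log2 fold changes between -0.81 and -0.75. These genes act in the cell cycle, DNA replication, the response to steroids, ribosome assembly and polyamine synthesis. Dgkeos, Myl10 and Rgcc were at -1.18, -1.07 and -0.90. Il12rb1 and Il21r were higher among 21 tested cytokine receptor genes (log2 fold changes 1.26 and 0.79), and Etv3 and Fli1 were higher among 13 tested ETS genes (0.81 and 0.64), and none of either list was lower. None of 16 tested survival genes and none of 8 tested E protein and Id genes passed. With 2.0% of all genes higher and 1.47% lower, lists of this size hold few calls or none in any case, and nothing is read from these counts. Of 14 genes of the stress of tissue dissociation, only Hsp90aa1 passed, and it was lower. Of 19 interferon response genes, Usp18 was higher and Bst2 and Samhd1 were lower.

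**Figure D4:**
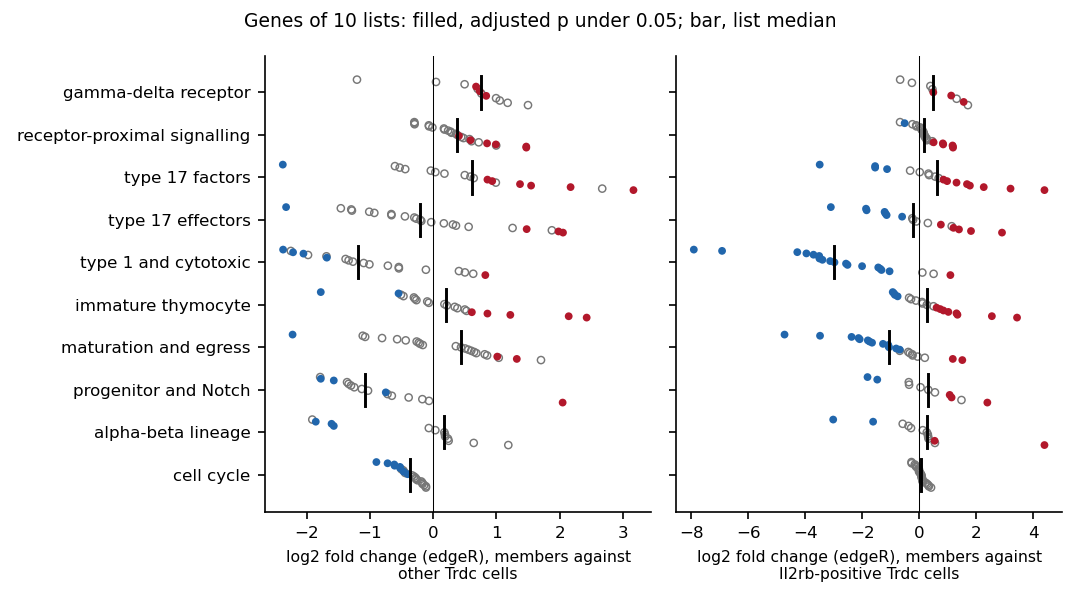
Log2 fold change (edgeR, horizontal axes) of each tested gene of 10 lists between Sox13/Etv5/Blk thymocytes and the other Trdc+ Il2ra- cells (left) or the Il2rb+ cells (right), with filled points for an adjusted p under 0.05 (red higher, blue lower), open points for other genes and a bar at the median of the list. On the left, type 1 and progenitor genes had medians of -1.18 and -1.08, and on the right the type 1 median was -2.97 and the median of maturation and egress genes was -1.06.

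The cells were also compared with Trdc+ Il2ra- cells that held Il2rb, the β chain of the receptors for interleukins 2 and 15 and a mark of type 1 γδ and NK cells, with no Il17re or Il23r and at most 1 UMI of Sox13, Etv5 and Blk. There were 30 such cells in the first run and 194 in the third. Those of the first run held 128 CPM of Cd8b1, a gene of αβ thymocytes, against 39.3 CPM in the gated cells, and those of the third 12.9 against 4.07 CPM (log2 fold change -1.62 ± 0.38 SE, adjusted p = 0.000702). What part such transcripts have in the values of this class was not tested. The Sox13/Etv5/Blk thymocytes held more Maf, Gata3, Tox2, Gzma and Ccr9, and less of most type 1 genes tested and of many genes of maturation and egress. Of 9120 genes tested, 260 (2.85%) were higher and 324 (3.55%) were lower. Here the model found no spread between runs beyond that of the trend (its prior degrees of freedom were infinite). The p-values and SEs thus do not draw on the spread of each gene between the runs, and both are too small where the runs differ. DESeq2, fitted as an alternative, called 29 genes higher and 73 lower. The values of both runs are therefore given.

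The type 1 list was lower almost throughout, with 18 of 21 genes lower and 1, Ifngr1, higher, and its median was -2.97 against 0.056 over all genes. The second class was chosen by Il2rb, a mark of type 1 cells, so this result could be foreseen from that choice. Against the other Trdc+ Il2ra- cells, 4 of 20 tested genes of the list were lower, 1 was higher and 15 did not pass. Ccl5 was at 1.36 CPM in the Sox13/Etv5/Blk thymocytes and 256 CPM in the Il2rb+ cells of the first run, and at 21.2 and 311 CPM in the third (-4.28 ± 0.25 SE). Xcl1 was at 2.03 against 171 CPM and at 8.66 against 74.0 CPM. Fcer1g was at 1.36 against 104 CPM and at 14 against 130 CPM. The Il2rb+ cells stood far above the gated cells in both runs. Tnfrsf9, at 3.39 against 67.0 CPM and 3.01 against 61.7 CPM, was alike in this. Cd160 and Cd7, receptors of NK and innate-like T cells, were lower by 2.57 and 2.51 on the log2 scale. Eomes and Ncr1, which define NK cells, were at 6.10 CPM (1 UMI) each in the 30 Il2rb+ cells of the first run and at 29.5 and 15.6 CPM in those of the third, while Ncr1 was at 0 in the gated cells of both runs.

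Many genes of maturation and exit from the thymus were lower than in the Il2rb+ cells. Of 23 such genes, 14 were lower and 2 were higher, with a median of -1.06. The sum over the list was nonetheless greater in the gated cells, at 7747 against 5955 CPM in the first run and 7478 against 6815 CPM in the third. Crip1, its most abundant gene, was at 5967 against 2139 CPM and at 4429 against 1645 CPM (1.52 ± 0.10). Klf2 was at 119 against 475 CPM in the first run and at 188 against 355 CPM in the third (-1.27 ± 0.18, adjusted p = 3.72e-10). S1pr1 was at 4.07 against 54.9 CPM and at 25.6 against 101 CPM (-2.13 ± 0.30, adjusted p = 3.23e-10). Gimap3, a GTPase of lymphocyte survival, was at 0.678 against 67.0 CPM and at 12.2 against 118 CPM. The gated cells were lower in both runs for each. Cd24a was higher in the third run, at 159 against 75.1 CPM, but not in the first, at 260 (234 to 287) against 311 CPM (231 to 409), beside an adjusted p of 0.0392 in the fit over both runs. Id2 and Id3, inhibitors of E proteins, were both lower. Id2 was at 14.2 against 146 CPM and at 47.0 against 265 CPM (-2.61 ± 0.23), and Id3 at 341 against 603 CPM and at 179 against 316 CPM (-0.76 ± 0.17). Of 18 interferon response genes, 8 were lower and 1 was higher, with a median of -0.87. Ifi27l2a was at 12.9 against 165 CPM and at 44.0 against 173 CPM. None of 22 cell cycle genes passed the test. Of 3 tested B cell genes, Cd79a was higher in the gated cells and none was lower. With 2.85% of all genes higher and 3.55% lower in this comparison, nothing is read from the lack of calls in these 2 lists.

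Of 18 type 17 factors, 8 were higher than in the Il2rb+ cells (Gata3, Maf, Rora, Runx1, Sox4, Tcf12 and Tox2 among them) and 4 were lower (Ahr, Ikzf3, Relb and Zbtb16). Maf was at 72.5 against 30.5 CPM in the first run and at 401 against 39.7 CPM in the third, where the Il2rb+ cells of the first run held 5 UMIs of it. Gata3 was at 330 against 146 CPM and at 379 against 98.1 CPM. Gzma was at 2137 against 634 CPM and at 3214 against 125 CPM, a log2 ratio of 1.75 in the first run and 4.68 in the third. Ccr9 was at 479 against 140 CPM and at 1249 against 184 CPM. The gap was thus wider in the third run for both genes. H2-Q2, a class I gene of the MHC whose reads may be shared with near copies, was at 53.5 against 6.09 CPM and at 54.8 against 3.22 CPM. Tuba8 and Cpa3 were higher here as well, by 3.39 and 2.39 on the log2 scale. The strongest decreases included Nrgn, which binds calmodulin, at 61.7 against 250 CPM and at 70.9 against 491 CPM.

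The type 17 cells of the third run, 112 Trdc+ Il2ra- cells with a UMI of Il17re or Il23r, were set beside the Sox13/Etv5/Blk thymocytes by values alone, because the first run held 13 of them. Of the genes that chose the gated cells, Sox13 was at 261 against 382 CPM, Etv5 at 131 against 246 CPM and Blk at 326 against 301 CPM. Ccr9, which the gate did not use, was at 1077 against 1249 CPM. Maf was higher in the type 17 cells, at 662 CPM (611 to 716) against 401 CPM (385 to 418). Il7r, the receptor for interleukin 7, was at 400 against 77.1 CPM, Icos at 233 against 31.1 CPM and Ccr6 at 49.4 against 7.43 CPM. Lgals3, a galectin, was at 142 against 9.02 CPM, and Id2 at 190 against 47.0 CPM. Il17a and Il17f were both at 29.0 CPM in the type 17 cells. The gated cells were higher in other genes, with Gzma at 3214 against 889 CPM, Tox2 at 128 against 23.6 CPM, Myo6 at 130 against 35.5 CPM, Mpp4 at 52.3 against 8.60 CPM and Cd27 at 387 against 248 CPM. Cd24a was at 159 CPM (149 to 170) against 182 CPM (155 to 211), with limits that overlap. The Poisson intervals quoted cover counting error alone, and no spread between samples can be given for these pairs of values.

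**Figure D5:**
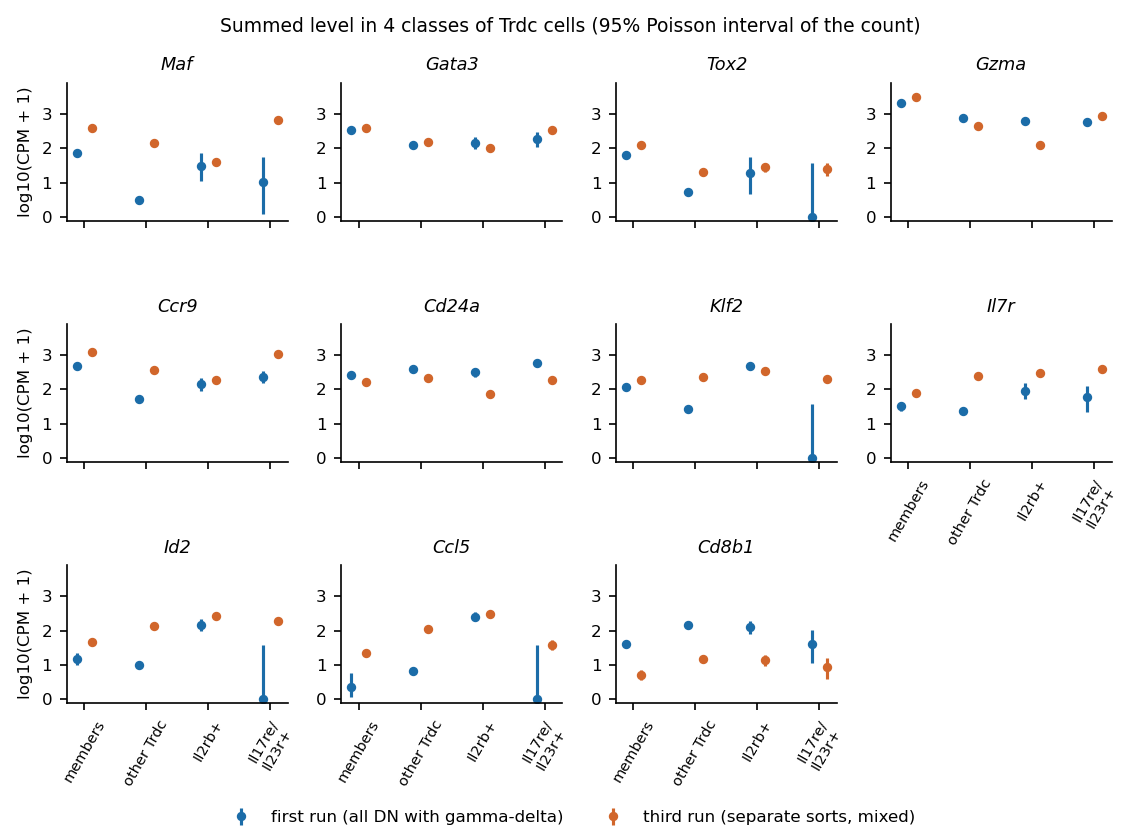
Level of 11 genes (vertical axes, log10 of CPM + 1, with the 95% Poisson interval of the count) in Sox13/Etv5/Blk thymocytes, the other Trdc+ Il2ra- cells, the Il2rb+ cells and the Il17re+ or Il23r+ cells, in the first run (blue) and the third run (orange). The last 2 classes are part of the other Trdc+ Il2ra- cells, and the 13 Il17re+ or Il23r+ cells of the first run give wide intervals. Gzma was highest in the Sox13/Etv5/Blk thymocytes in both runs, while Klf2, Id2 and Ccl5 were highest in the Il2rb+ cells.

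Within the Sox13/Etv5/Blk thymocytes, cells with and without Maf differed in other genes. Of the cells of the third run, 502 held Maf and 136 did not, and the latter had more UMIs (median 11321 against 6631). These 2 groups were split by a measured gene and are described without a test. Ccr9 was at 1534 CPM in cells with Maf and 606 CPM in cells without, Gata3 at 463 and 190 CPM and 5830411N06Rik at 614 and 188 CPM. Nrgn was the reverse, at 9.71 and 209 CPM. In the first run, 69 cells with Maf and 133 without showed the same order for Ccr9, at 647 and 401 CPM, and for Gata3, at 455 and 272 CPM, but not for Nrgn, at 59.8 and 62.6 CPM. Tox2 hardly differed in either run, at 134 and 114 CPM in the third and 61.9 and 60.6 CPM in the first. Cells with Mki67 or Top2a numbered 102 of 202 in the first run and 253 of 638 in the third. They had more UMIs than the rest, with medians of 9173.5 against 3328 in the first run and 9182 against 6348 in the third. Their Maf was at 39.0 against 163 CPM and 226 against 592 CPM, and the part of depth in this was not tested.

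Transcripts of γ chain V genes are given mainly for the third run, whose gene list holds Trgv2, Tcrg-V1 and Tcrg-V4, in the names of the files. Trgv2 was the most abundant of them in the Sox13/Etv5/Blk thymocytes, at 309 CPM, but it was also at 227 CPM in 400 cells with at least 2 UMIs of Ptcra, at least 1 of Il2ra and none of Trdc, so its transcripts do not by themselves mark a γδ receptor. Tcrg-V4 was at 56.6 CPM, against 28.9 CPM in the comparison cells, 26.3 CPM in the Il2rb+ cells, 59.1 CPM in the type 17 cells and 41.0 CPM in the Ptcra+ Il2ra+ cells. Tcrg-V1 had another order, at 38.9 CPM in the gated cells, 67.6 CPM in the Il2rb+ cells, 19.3 CPM in the type 17 cells and 12.9 CPM in the Ptcra+ Il2ra+ cells. Tcrg-V4 was detected in 228 of 638 gated cells (35.7%, 32.0 to 39.6), and 181 of these also held Trgv2. It was detected in 25.0% of the 400 Ptcra+ Il2ra+ cells (median 7372 UMIs) and in 1.13% of the 354 cells with B cell genes. In the first run, Tcrg-V4 was detected in 7 of 202 gated cells (3.47%) and Trgv2 in 53 (26.2%), with no values for Tcrg-V1. Trgv2 was detected in 77.7% of the gated cells of the third run, so these shares differed widely between the runs. The test against the other Trdc+ Il2ra- cells called Trgv2 higher (0.84 ± 0.15, adjusted p = 0.0273) and did not call Tcrg-V4 (1.18 ± 0.30, adjusted p = 0.0787). Against the Il2rb+ cells, 3 of 9 tested γδ receptor genes were called higher (Tcrg-C1, Tcrg-V4 and Trdv5) and none lower. Over all genes, 2.85% were higher in that comparison.

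Il7r showed how much the comparison depended on the run. It was at 31.2 CPM (22.8 to 41.6) in the gated cells of the first run and at 22.6 CPM (20.2 to 25.3) in the comparison cells. The third run gave 77.1 CPM (70.0 to 84.7) and 244 CPM (231 to 256), so that the gated cells were far below the comparison cells in that run alone. The fit over both runs did not call it (-0.93 ± 0.39, adjusted p = 0.251), while 6 of 18 alternative fits called it lower.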

How the data were processed

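Thymocytes of C57BL/6 mice were profiled in 3 10x libraries. The authors aligned the reads to mm10 and deposited the UMI count of every gene in every cell as whole numbers, without normalization or any filter beyond the calling of cells by Cell Ranger. The header of the third run names version 4.0.0. The study's methods also name an older version, and which of the other runs it served is not given in the sources used here. The submitters' processing notes also name R 3.6.3 and Seurat 2.3. The libraries list 28692, 28692 and 32285 genes.

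The 840 cells, the classes compared and the gene lists were chosen with earlier results of these data known. Counts were summed per run and class and tested with edgeR 4.0.16 (limma 3.58.1, R 4.3.3), using TMM, filterByExpr, a quasi-likelihood F test (two-sided) with the run as a block, and p-values adjusted by Benjamini-Hochberg across the whole table (threshold 0.05). Each run is 1 library, so both classes of a run share it, and p-values measure only the spread between these sums. The SE of a log2 fold change was its absolute value divided by the square root of the F statistic. The 7 genes of the gate, and Il2rb where it chose the other class, were not tested. Classes with fewer than 20 cells in a run were not tested. Genes were named if they belonged to a list, or were among the 12 greatest increases or 12 greatest decreases that passed the threshold with the same direction in both runs and at least 50 CPM in the higher class of each run, without mitochondrial, ribosomal protein and provisional gene models. Some genes that this rule takes are not reported here. Doublets were scored with Scrublet (scanpy 1.11.5) but not removed, except in an alternative without the top 10%. Of the Sox13/Etv5/Blk thymocytes, 13.9% of the first run and 10.2% of the third lay in that top group, against 8.32% and 12.9% of the other Trdc+ cells and 23.3% and 17.5% of the Il2rb+ cells. Other alternatives changed the limits of the gate, the comparison cells, the normalization, the filter and the tool (DESeq2 1.42.0), or thinned cells to 2000 UMIs.

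The fit was tested on simulated data with the depths above and a common dispersion. For the comparison with the other Trdc+ cells (10691 genes), edgeR recovered 66 of 98 genes changed 2-fold and 94 of 99 changed 4-fold with 4 false among 164 calls, and DESeq2 recovered 24 and 71 with 0 false calls. For the Il2rb+ cells (9016 genes), edgeR recovered 43 of 95 and 86 of 93 with 4 false among 133 calls. The numbers for DESeq2 there were 9 and 45, and none of its calls was false. These numbers hold only for data with a common dispersion. How many calls are false among genes whose fold changes differ between the runs was not tested. Maf against the other Trdc+ cells is such a gene, with log2 ratios of 5.08 in the first run and 1.53 in the third. Gzma against the Il2rb+ cells is another, at 1.75 and 4.68. Intervals of shares are exact Clopper-Pearson 95% intervals.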

Additional observations from a re-analysis of the deposited data

Results flagged for a closer look

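The second run, which entered no comparison, was sorted for DN1 and DN2 thymocytes against TCRγδ on the cell surface, yet 357 of its 8852 kept cells met the same gate (4.03%, exact 95% interval 3.63 to 4.46), beside 1160 other Trdc+ Il2ra- cells. These cells were shallower, with a median of 3064 UMIs. The 3 genes were detected together in 121 of them (33.9%), Sox13 in 59.7%, Etv5 in 67.2% and Blk in 85.2%. Maf was found in 215 of the 357 cells.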

How the results depend on the processing

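The number of gated cells moved beyond 1.5 times in 2 settings. Thinning to 2000 UMIs left 74 in the first run and 302 in the third, and leaving out cells with Mki67 or Top2a, an alternative added after seeing the data, left 100 and 385.

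Against the other Trdc+ cells, the numbers of genes higher and lower moved beyond 1.5 times as follows. Without limits on genes per cell 247 were lower. With Trdc of at least 4 UMIs, 27 were higher and 4 lower. With at least 3 UMIs of the 3 genes, these were 322 and 301, and with at least 2 of the 3 genes 258 were lower. Thinned cells gave 238 lower, comparison cells without Il17re and Il23r gave 569 and 579, and the absence of a filter gave 554 and 649. DESeq2 called 130 higher. Without the replicate block (the run), edgeR called 0 in either direction, with 41 genes at an unadjusted p under 0.05. For the Il2rb+ cells, DESeq2 gave 29 and 73, removal of doublets 147 higher, and the fit without the replicate block 0 and 0, with 212 genes at an unadjusted p under 0.05. The cause of these differences was not tested.

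All 65 genes named and called against the other Trdc+ cells kept their direction in every alternative that gave them a value. With Trdc of at least 4 UMIs, 13 of them were still called, with doublets removed 54, without cells with Mki67 or Top2a 49, without cells with Cd8b1, Ptcra or Rag1 54 of 62 tested, and without cells with B cell genes (both added after seeing the data) 58. With 1 run left out, directions differed for genes that were not called, as Il7r ranged from -1.66 to 0.46 and Id3 from -0.016 to 0.82, and against the Il2rb+ cells for Cd24a, from -0.26 to 1.09. A count of 0 in the first run leaves only the third for Zbtb16, Lgals3 and Tyrobp. Depth limits the 30 Il2rb+ cells of the first run, where 1 UMI is worth 6.10 CPM. The alternatives planned for a test against the Il17re+ or Il23r+ cells were not run, because the 13 such cells of the first run were too few for that test.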
